A study of Mus musculus with 2 samples.

Results

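The genes described here are 5 myeloid growth factors or cytokines (*Csf1*, *Il34*, *Csf2*, *Igf1* and *Tgfb1*) and 5 receptor chains (*Csf1r*, *Csf2ra*, *Csf2rb*, *Tgfbr1* and *Tgfbr2*). They were chosen by name, with earlier results of these data known. All 10 were found among the 33696 genes of the deposited matrices, with 1 row each. The data were single-cell RNA sequencing (scRNA-seq) of sorted live CD45+ cells from the thalamus of C57B6/J mice, collected 21 days after a cortical ablation injury, a lesion of the sensory-motor cortex at a distance from the thalamus. One library came from mice given normal rat IgG into the thalamus (control Ab) and 1 from mice given a rat antibody to the tetraspanin CD9 (anti-CD9 Ab), both injected between days 7 and 19. The mice of both groups were injured, were stated to be 12 weeks old and carried no transgene that the sources used here name. Cells of several mice were pooled (4 mice were stated for thalamus, and the number was not repeated for the antibody groups), so there was 1 library per antibody. The antibodies, the pools of mice and the libraries therefore cannot be told apart, and no difference below has a replicate check.

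CSF-1, encoded by *Csf1*, and IL-34 are both ligands of the receptor tyrosine kinase CSF1R, on which microglia and many macrophages depend for survival. GM-CSF, encoded by *Csf2*, signals through a specific alpha chain (*Csf2ra*) and a beta chain (*Csf2rb*) that it shares with the IL-3 and IL-5 receptors, and its canonical sources include activated T cells. TGF-beta 1 (*Tgfb1*) binds the type II receptor TGFBR2, which recruits the type I receptor TGFBR1, and microglia need this pathway to keep their homeostatic program. Insulin-like growth factor 1 (*Igf1*) is a trophic factor made by reactive and developing microglia, among other cells.

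The quality limits of the study kept 7467 cells under control Ab and 9162 under anti-CD9 Ab that held 24940542 and 22664880 UMIs (unique molecular identifiers, which count captured transcripts). The 2 libraries shared 54 cell barcodes. Clustering, from which the 10 genes and their pathway partners were held out, gave 24 clusters, and 17 of them could be named from marker genes. Named cells included microglia-like cells (1954 under control Ab and 891 under anti-CD9 Ab), monocyte or macrophage-like cells (175 and 1109), neutrophil-like cells (64 and 2674), dendritic cell-like cells (123 and 382), T cell-like cells (1456 and 635), and a T cell-like cluster with gamma-delta or IL-17 markers (1334 and 338). The makeup of the 2 libraries thus differed widely, and the libraries also held astrocyte-like (427 and 77) and oligodendrocyte-like cells (307 and 96), which a CD45 gate should leave out. Levels are given as CPM (the UMIs of a gene over all UMIs of the cell group, scaled as usual for this unit) with exact 95% Poisson intervals, and ratios as log2 of anti-CD9 Ab over control Ab. All intervals cover counting error only, not the spread between mice. *Ptprc*, encoding CD45, had a UMI in 37.8% and 43.4% of microglia-like cells thinned to 1000 UMIs. *Cd9*, the gene of the antibody target, was 4101 and 1806 CPM in microglia-like, 4245 and 369 CPM in macrophage-like and 2481 and 2387 CPM in neutrophil-like cells.

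*Csf1* was lower in microglia-like and macrophage-like cells under anti-CD9 Ab, and its highest level among the named types was in neutrophil-like cells. Under control Ab the neutrophil-like interval overlapped the microglia-like one. In microglia-like cells the *Csf1* level was 425 CPM (412 to 438, 4239 UMIs) under control Ab and 209 CPM (194 to 226, 663 UMIs) under anti-CD9 Ab, giving a log2 ratio of −1.02 (−1.14 to −0.90). In neutrophil-like cells it was 575 CPM (412 to 780, 41 UMIs) and 554 CPM (529 to 580, 1833 UMIs), levels whose intervals overlapped. The class joined 2 clusters in different proportions, since 51 of its 64 control cells were in the cluster led by *Retnlg* and *S100a8*, and 1432 of its 2674 anti-CD9 Ab cells in the cluster led by *Cxcl2* and *Ccl4*. In the *Retnlg* cluster (51 and 1242 cells) *Csf1* was 353 and 248 CPM, with a log2 ratio of −0.51 (−1.15 to 0.13). In the *Cxcl2* cluster (13 and 1432 cells) it was 1689 CPM (1032 to 2609, 20 UMIs) and 773 CPM (734 to 813). Both clusters thus had the lower value under anti-CD9 Ab, while the ratio of the class was −0.05, or −0.53 without integration and −0.74 thinned to 500 UMIs. After each cell was thinned to 1000 UMIs, 22.7% of microglia-like cells had a *Csf1* UMI under control Ab and 10.9% under anti-CD9 Ab, against 0.762% and 0.647% of gamma-delta or IL-17 T cell-like cells. The unthinned shares were 46.0% and 24.6% for microglia-like cells, with median depths of 3094.5 and 3336 UMIs, and the T cell-like cluster had medians of 1502 and 2583 UMIs. The microglial shares thus lay far above this 1 lymphoid type, but not above all. T cell-like cells had a *Csf1* UMI in 2.75% and 6.59% of thinned cells. In the T cell-like cluster with *Foxp3* among its leading genes the share was 11.3% (6.16 to 18.6%) under anti-CD9 Ab, which overlapped the microglia-like share.

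Within microglia-like cells, *Csf1* differed both between states and between libraries. The cluster led by disease-associated markers such as *Cst7*, *Lpl* and *Spp1* (MG#4-like in the naming of the study, 936 and 371 cells) held 611 CPM (591 to 632) under control Ab and 375 CPM (343 to 410) under anti-CD9 Ab. The cluster led by homeostatic markers such as *P2ry12* and *Siglech* (MG#2/3-like, 965 and 472 cells) held 185 CPM (171 to 198) and 74.1 CPM (61.4 to 88.6). The lower level under anti-CD9 Ab was thus found in both states, with log2 ratios of −0.70 (−0.84 to −0.57) and −1.32 (−1.60 to −1.04). Without integration of the libraries the ratio over all microglia-like cells was −0.03, so this difference depended on how cells were assigned to types. Neutrophil markers moved in the opposite direction to *Csf1*. Their summed level in microglia-like cells was 226 CPM under control Ab and 1054 CPM under anti-CD9 Ab, with 0 of 10 markers at 0. The 12 microglia markers were lower under anti-CD9 Ab, summing to 17287 and 10291 CPM. The part of these in the result was not tested. Predicted doublets made up 5.58% and 13.5% of the microglia-like cells, and without them the ratio was −1.11.

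In monocyte or macrophage-like cells *Csf1* was 262 CPM (232 to 295, 277 UMIs) under control Ab and 15.0 CPM (12.1 to 18.5, 89 UMIs) under anti-CD9 Ab, giving a log2 ratio of −4.13 (−4.47 to −3.78). Most of the control UMIs came from 1 sub-cluster led by *Fabp5*, *Gpnmb* and *Spp1* (115 and 169 cells), the only one of those kept with at least 50 cells in each library, where the levels were 329 CPM (288 to 373) and 42.2 CPM (30.03 to 57.7). The log2 ratio inside it was −2.96 (−3.45 to −2.47). The 12 microglia markers summed to 4772 CPM in this sub-cluster under control Ab and 2496 CPM under anti-CD9 Ab, and the 12 macrophage markers to 24789 and 29495 CPM. Sub-clusters of mostly predicted doublets (96 and 88 cells) were left out of the class, and with them kept the ratio was −3.73. The part of microglial RNA in the control level was not tested.

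T cell-like cells had a higher *Csf1* level under anti-CD9 Ab. Their *Csf1* level was 34.5 CPM (27.9 to 42.2, 94 UMIs) under control Ab and 69.7 CPM (57.9 to 83.2, 123 UMIs) under anti-CD9 Ab, giving a log2 ratio of 1.01 (0.63 to 1.40). Both T cell-like clusters with enough cells shared the direction, at 1.61 (1.12 to 2.10) in the larger cluster and 1.07 (0.38 to 1.76) in the cluster led by *Foxp3*, the regulatory T cell factor. Values in other lymphoid types, at low counts and with overlapping intervals, were 7.12 and 14.8 CPM in gamma-delta or IL-17 T cell-like cells (15 and 14 UMIs), 13.5 and 24.4 CPM in NK cell-like cells (12 and 9 UMIs) and 55.6 and 131 CPM in B cell-like cells (6 and 27 UMIs). The 10 neutrophil markers moved with them, summing to 281 and 365 CPM in T cell-like, 23.2 and 262 CPM in gamma-delta or IL-17 T cell-like and 24.7 and 734 CPM in NK cell-like cells, and their part in the *Csf1* values was not tested. The NK cell-like cluster also had 11 T cell markers up (91.7% of that list), with *Cd8a* and *Cd8b1* among its leading genes. Its values here and below may therefore not be those of NK cells alone. Dendritic cell-like cells held 41.1 CPM (27.3 to 59.4) and 16.8 CPM (11.1 to 24.3), from 28 UMIs in each library, and their log2 ratio of −1.29 (−2.05 to −0.54) changed sign to 0.42 when cells with up to 5% mitochondrial counts were kept.

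**Figure D1:**
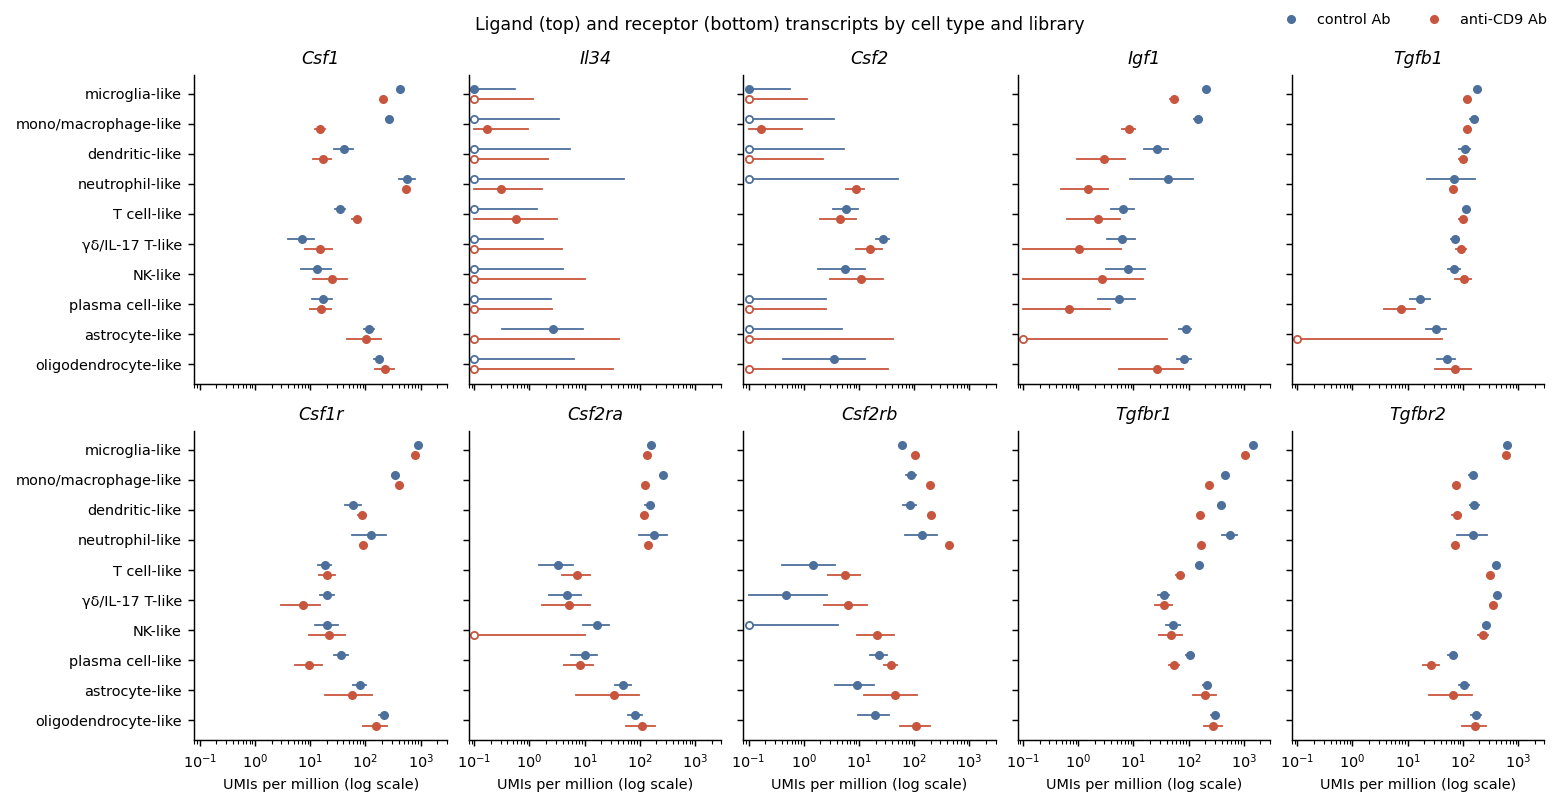
Level of each of the 5 ligands (top) and 5 receptor chains (bottom) in 10 cell types, in CPM on a log axis, for control Ab (blue) and anti-CD9 Ab (red). Points are pooled levels, lines exact 95% Poisson intervals, and open circles at the left edge groups with 0 UMIs. *Csf1* has its highest value in neutrophil-like cells (575 and 554 CPM), though under control Ab the interval overlaps that of microglia-like cells. *Csf1r* (907 and 786 CPM) and *Tgfbr1* (1462 and 1070 CPM) are highest in microglia-like cells in both libraries.

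*Igf1* was lower under anti-CD9 Ab in microglia-like and macrophage-like cells. In microglia-like cells it was 208 CPM (199 to 217, 2072 UMIs) under control Ab and 54.3 CPM (46.5 to 63.1, 172 UMIs) under anti-CD9 Ab, giving a log2 ratio of −1.94 (−2.16 to −1.71). In all, 1.25% of the 11129 genes with at least 50 UMIs in these cells had a lower ratio. With control Ab the MG#4-like cluster held 321 CPM (306 to 336) and the MG#2/3-like cluster 59.3 CPM (52.0 to 67.3). With anti-CD9 Ab these levels were 117 CPM (99.3 to 137) and 6.17 CPM (2.96 to 11.3). Both clusters were therefore lower, the disease-associated one by −1.45 (−1.69 to −1.22) and the homeostatic one by −3.26 (−4.18 to −2.35) on the log2 scale. As for *Csf1*, the part of intermediate cells within these clusters was not tested. In the homeostatic cluster the anti-CD9 Ab value rested on 10 UMIs.

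The same direction held in monocyte or macrophage-like cells, in which *Igf1* was 149 CPM (126 to 174, 157 UMIs) under control Ab and 8.27 CPM (6.12 to 10.9, 49 UMIs) under anti-CD9 Ab. The log2 ratio was −4.17 (−4.63 to −3.71) over the class and −2.20 (−2.73 to −1.67) inside the *Fabp5* and *Gpnmb* sub-cluster. The sub-cluster led by *Chil3*, *Vcan* and *Ccr2*, genes of monocytes that have recently entered tissue, had 0 *Igf1* UMIs in either library (14 and 226 cells). Without integration the microglial ratio was −0.73, still lower under anti-CD9 Ab. In T cell-like cells *Igf1* was 6.61 CPM (3.91 to 10.4) and 2.27 CPM (0.62 to 5.80), low levels in a type that is not a known source. Astrocyte-like cells held 88.2 CPM (68.4 to 112, 67 UMIs) under control Ab and 0 UMIs under anti-CD9 Ab. The control level was 2.62-fold a floor of 3 counts (33.7 CPM), and the exact interval of the 0 count reached 41.4 CPM. Oligodendrocyte-like cells held 82.9 CPM (47 UMIs) and 27.2 CPM (3 UMIs), with a log2 ratio of −1.61 (−3.29 to 0.07). Levels in these 2 non-myeloid types thus had the same direction. Microglia markers moved with the difference in macrophage-like cells, since the 12 summed to 4939 and 1257 CPM there, and their part in it was not tested.

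The 250 bases before the transcript start of *Csf1* and *Igf1* are shown because both ligands were lower in microglia-like and macrophage-like cells, with that of *Csf2rb2*, a receptor gene that was higher. They are from RefSeq on GRCm38.p6, each read 5′ to 3′ along its gene: *Csf1* at chr3:107760470-107760719 (minus strand), *Igf1* at chr10:87860861-87861110 (plus strand) and *Csf2rb2* at chr15:78305722-78305971 (minus strand). Capitals mark matches, on either strand and none overlapping, to PU.1 (GAGGAA), C/EBP (TTGCNNAA) or AP-1 (TGANTCA) letters, transcription factors of myeloid cells.
Csf1: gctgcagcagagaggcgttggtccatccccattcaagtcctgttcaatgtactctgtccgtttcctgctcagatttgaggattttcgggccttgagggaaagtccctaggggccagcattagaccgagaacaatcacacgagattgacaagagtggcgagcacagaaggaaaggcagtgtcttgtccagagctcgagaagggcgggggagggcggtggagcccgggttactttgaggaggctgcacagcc
Igf1: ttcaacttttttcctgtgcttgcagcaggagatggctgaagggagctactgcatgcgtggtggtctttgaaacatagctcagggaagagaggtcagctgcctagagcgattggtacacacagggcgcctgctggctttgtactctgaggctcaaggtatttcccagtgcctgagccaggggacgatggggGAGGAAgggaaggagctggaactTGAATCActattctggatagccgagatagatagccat
Csf2rb2: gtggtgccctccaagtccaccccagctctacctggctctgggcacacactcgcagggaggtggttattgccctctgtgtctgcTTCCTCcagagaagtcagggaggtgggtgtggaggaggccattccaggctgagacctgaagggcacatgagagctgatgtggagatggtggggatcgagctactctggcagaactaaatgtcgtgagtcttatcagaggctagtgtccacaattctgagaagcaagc
The *Igf1* window held 1 PU.1 and 1 AP-1 match, the *Csf2rb2* window 1 PU.1 match, and the *Csf1* window 0 of the 3 motifs. Of 32851 mouse promoter windows of this length, 23.3% held the PU.1 letters, 9.56% the C/EBP letters and 6.75% the AP-1 letters. A match is a description of the letters only.

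**Figure D2:**
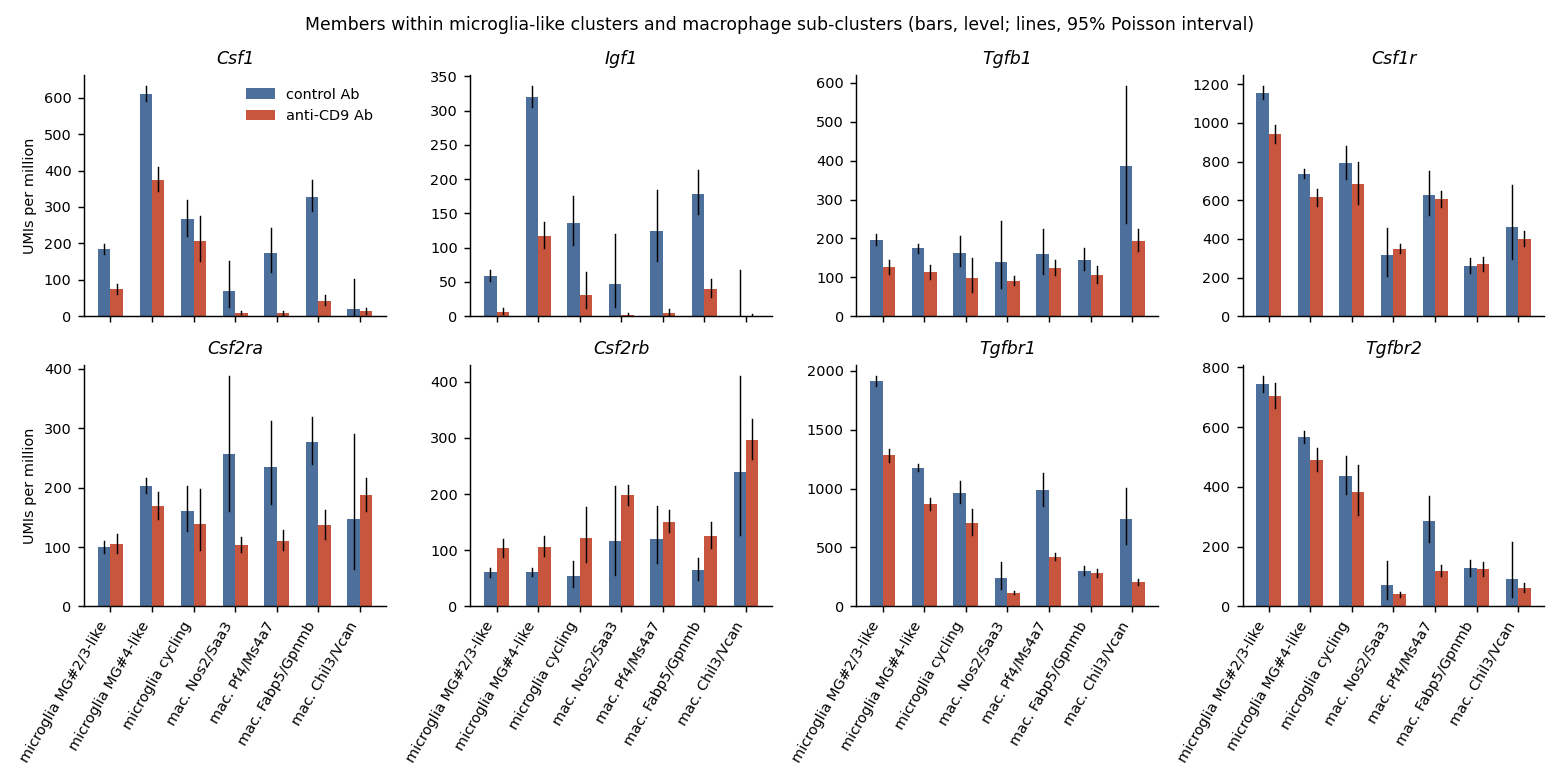
Level (CPM) of 8 genes in the 3 microglia-like clusters and in the 4 monocyte or macrophage-like sub-clusters kept in the class, for control Ab (blue) and anti-CD9 Ab (red), with 95% Poisson intervals as lines. *Csf1* and *Igf1* are highest in the MG#4-like cluster, and *Igf1* is lower under anti-CD9 Ab in each microglia-like cluster. Of the sub-clusters, only that of *Fabp5* and *Gpnmb* had 50 or more cells in both libraries.

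*Tgfb1* was spread over many cell types. Microglia-like cells held 182 CPM (174 to 191, 1821 UMIs) under control Ab and 118 CPM (106 to 131, 374 UMIs) under anti-CD9 Ab, giving a log2 ratio of −0.63 (−0.79 to −0.47), and both states were lower by similar amounts (−0.65 and −0.63). Monocyte or macrophage-like cells held 159 CPM (136 to 185) and 118 CPM (110 to 127), so that under anti-CD9 Ab they and microglia-like cells had overlapping levels. T cell-like cells held 114 CPM (102 to 128) and 100.3 CPM (86.1 to 116), dendritic cell-like cells 107 CPM (84.0 to 135) and 98.9 CPM (84.4 to 115), and neutrophil-like cells 70.1 CPM (22.8 to 164) and 66.5 CPM (57.99 to 75.9). In these 3 types the intervals of the 2 libraries overlapped. The ratio in gamma-delta or IL-17 T cell-like cells was 0.36 (−0.01 to 0.74).

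*Csf2* and *Il34* were sparse, with 205 and 41 UMIs over both libraries. Of 88 *Csf2* UMIs under control Ab, 57 were in gamma-delta or IL-17 T cell-like cells (64.8%, exact binomial interval 53.9 to 74.7%), spread over 56 cells, and 16 were in T cell-like cells. Of 117 UMIs under anti-CD9 Ab, 15 were in gamma-delta or IL-17 T cell-like cells (12.8%, 7.36 to 20.3%), while 42 came from 1 cell of a doublet-rich macrophage sub-cluster and 29 from 2 neutrophil-like cells, 26 of them from 1 cell. A further 14 lay in 13 of the 1235 cells of an unnamed cluster led by *Arg1* and *Cxcl13*, whose nearest type was monocyte or macrophage. As CPM, gamma-delta or IL-17 T cell-like cells held 27.0 CPM (20.5 to 35.0) and 15.9 CPM (8.87 to 26.2), giving a log2 ratio of −0.77 (−1.59 to 0.05), a difference not detectable at this depth. Microglia-like cells held 1 *Csf2* UMI of 9978574 under control Ab and 0 of 3167406 under anti-CD9 Ab, with an exact upper limit of 1.16 CPM.

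*Il34*, the other CSF1R ligand and in brain mainly a product of neurons, lay mostly in unnamed clusters. With control Ab 15 of 24 UMIs were in cluster 22 (68 cells, led by *Slc4a10* and *Ror1* and nearest to fibroblasts by its markers) and 6 in cluster 14 (298 cells, led by *Kcnip4*, *Opcml* and *Nrxn3*, genes of neural cells, and left unnamed for leading genes of another type, with 0 oligodendrocyte markers among its first 10). With anti-CD9 Ab each of these clusters held 6 of 17 UMIs, from 15 and 83 cells. No named type held more than 2 *Il34* UMIs in a library. CD45+ sorting leaves out most neurons, so these counts say little about the tissue, and no ratio was formed.

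**Figure D3:**
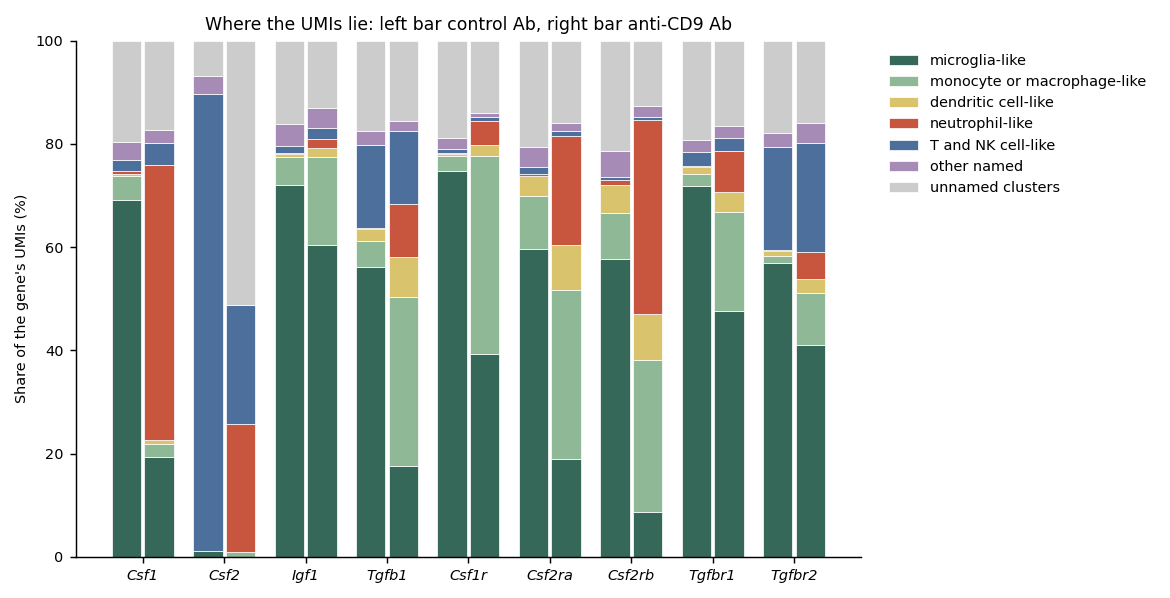
Share of each gene's UMIs (percent) by cell group, under control Ab in the left and anti-CD9 Ab in the right bar of each pair. *Il34* is left out for its 41 UMIs. The *Csf1* bar changes from 69.2% microglia-like to 53.3% neutrophil-like, and the unnamed part of the *Csf2* bar under anti-CD9 Ab includes the 42 UMIs of 1 cell (35.9%).

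*Csf1r* marked microglia-like cells in both libraries. Their level was 907 CPM (889 to 926, 9052 UMIs) under control Ab and 786 CPM (755 to 817, 2488 UMIs) under anti-CD9 Ab, giving a log2 ratio of −0.21 (−0.27 to −0.14), and 28.0% of genes in these cells had a lower ratio. The homeostatic cluster was higher than the disease-associated cluster, at 1157 against 736 CPM under control Ab and 940 against 614 CPM under anti-CD9 Ab. *Csf1r* thus ordered the states opposite to *Csf1*. The share of thinned microglia-like cells with a UMI was 59.0% (56.8 to 61.2%) and 55.0% (51.6 to 58.3%), against 1.26% and 1.69% of T cell-like cells, and unthinned 89.8% and 86.4%.

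Monocyte or macrophage-like cells came second, at 344 CPM (309 to 381) under control Ab and 409 CPM (393 to 426) under anti-CD9 Ab. Their log2 ratio of 0.25 (0.09 to 0.41) was 0.05 (−0.22 to 0.33) inside the *Fabp5* and *Gpnmb* sub-cluster and −0.35 with the doublet-rich sub-clusters kept, so its direction was not settled. Among sub-clusters under anti-CD9 Ab, that led by *Pf4* and *Ms4a7*, genes of resident-type macrophages, was highest at 605 CPM (566 to 645), and the *Fabp5* and *Gpnmb* sub-cluster lowest at 269 CPM (236 to 304). Types that are not known to make the receptor also held UMIs. Plasma cell-like cells held 36.4 CPM (27.3 to 47.5) and 9.60 CPM (5.25 to 16.1), and oligodendrocyte-like cells 215 and 154 CPM. Predicted doublets were 19.3% and 23.8% of the plasma cell-like and 14.7% and 25% of the oligodendrocyte-like cells, and whether these UMIs came from doublets or from free RNA was not tested.

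The GM-CSF receptor chains differed from each other. *Csf2ra* was 160 CPM (152 to 168) under control Ab and 134 CPM (122 to 148) under anti-CD9 Ab in microglia-like cells, 260.5 CPM (231 to 293) and 124 CPM (115 to 133) in monocyte or macrophage-like cells, and 182 CPM (97.0 to 312) and 143 CPM (131 to 157) in neutrophil-like cells. With anti-CD9 Ab the 4 myeloid types lay between 119 and 143 CPM, with neighboring intervals overlapping. The alpha chain was thus lower in macrophage-like cells (log2 ratio −1.08, −1.28 to −0.88) and less so in microglia-like cells (−0.26, −0.41 to −0.10). Of the microglial states, the MG#4-like cluster held 203 and 168 CPM (−0.27, −0.48 to −0.07) and the MG#2/3-like cluster 100.1 and 105.5 CPM (0.08, −0.18 to 0.34). T cell-like cells held 3.30 and 7.37 CPM.

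*Csf2rb* was higher under anti-CD9 Ab in each of the 4 myeloid types. It was 60.4 CPM (55.7 to 65.5, 603 UMIs) and 105 CPM (94.4 to 117, 334 UMIs) in microglia-like cells, with a log2 ratio of 0.80 (0.61 to 1.00), or 0.32 without integration of the libraries. Neutrophil markers moved with it, at 226 and 1054 CPM summed over the 10 in microglia-like cells, and their part was not tested. In monocyte or macrophage-like cells it was 88.1 CPM (71.1 to 108) and 190 CPM (180 to 202), with 1.11 (0.81 to 1.42). In dendritic cell-like cells it was 83.7 CPM (63.4 to 108) and 202 CPM (181 to 225), with 1.27 (0.87 to 1.68). Neutrophil-like cells had the highest level under anti-CD9 Ab, 435 CPM (413 to 459, 1441 UMIs), against 140 CPM (67.2 to 258) from only 10 UMIs under control Ab, giving a log2 ratio of 1.64 (0.74 to 2.53). The higher level was seen in both microglial states (0.77 and 0.80), in the *Fabp5* and *Gpnmb* sub-cluster (0.97, 0.47 to 1.46) and in the larger dendritic cell-like cluster (1.10, 0.66 to 1.54), and T cell-like cells held 1.47 and 5.67 CPM.

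*Csf2rb2* encodes a second beta chain used by the mouse IL-3 receptor and is a close copy of *Csf2rb*. Of the 50-base words of the *Csf2rb* transcript 18.4% also occur in *Csf2rb2* or another gene, but 0% of those in its last 500 bases, where 3′ reads lie (mouse GENCODE transcripts). Counts of either gene are uncertain to the extent that reads fell in the shared stretch. *Csf2rb2* was also higher under anti-CD9 Ab, at 17.5 and 32.2 CPM in microglia-like cells (log2 ratio 0.88, 0.52 to 1.23), 20.8 and 68.9 CPM in macrophage-like cells (1.73, 1.11 to 2.34) and 25.0 and 58.1 CPM in dendritic cell-like cells (1.22, 0.48 to 1.963). Inside the *Fabp5* and *Gpnmb* sub-cluster it was 19.6 CPM (10.7 to 32.8, 14 UMIs) and 43.3 CPM (30.9 to 59.0, 40 UMIs), with overlapping intervals.

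The TGF-beta receptor chains were highest in microglia-like cells. *Tgfbr1* was 1462 CPM (1438 to 1486, 14586 UMIs) under control Ab and 1070 CPM (1034 to 1107, 3389 UMIs) under anti-CD9 Ab, giving a log2 ratio of −0.45 (−0.50 to −0.40). *Tgfbr2* was 632 CPM (616 to 647) and 593 CPM (566 to 620), a ratio of −0.09 (−0.17 to −0.02). The difference was larger for the type I receptor, but without integration of the libraries the 2 ratios were −0.27 and −0.22. For both chains the homeostatic cluster was above the disease-associated one in each library, with *Tgfbr1* at 1910 against 1178 CPM under control Ab and 1282 against 871 CPM under anti-CD9 Ab, and *Tgfbr2* at 743 against 567 CPM and 705 against 491 CPM.

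Outside microglia the 2 chains separated by lineage. *Tgfbr2* was second highest in T lineage cells, with 419 CPM (392 to 447) and 351 CPM (314 to 391) in gamma-delta or IL-17 T cell-like cells and 400.4 CPM (377 to 425) and 310 CPM (285 to 337) in T cell-like cells. The same gamma-delta or IL-17 T cell-like cells held 35.6 and 35.9 CPM of *Tgfbr1*. In myeloid cells other than microglia both chains were lower under anti-CD9 Ab. *Tgfbr1* was 451 and 233 CPM in macrophage-like cells (log2 ratio −0.96, −1.11 to −0.81), 394 and 163 CPM in dendritic cell-like cells (−1.27, −1.51 to −1.03) and 561 and 172 CPM in neutrophil-like cells (−1.71, −2.17 to −1.24). *Tgfbr2* was 151 and 76.5 CPM (−0.98, −1.24 to −0.72), 162 and 76.7 CPM (−1.07, −1.44 to −0.71) and 154 and 71.9 CPM (−1.10, −1.97 to −0.23) in these types. In the *Fabp5* and *Gpnmb* sub-cluster, however, neither chain differed beyond counting error, with ratios of −0.10 (−0.36 to 0.16) and −0.03 (−0.43 to 0.37). *Tgfbr1* was also lower for T cell-like cells, 152 and 70.8 CPM (−1.10, −1.39 to −0.81), and more so in the *Foxp3* cluster (−1.41, −1.997 to −0.83) than in the larger cluster (−0.55, −0.92 to −0.17), a difference that was not tested.

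Levels in plasma cell-like cells had the same direction as these receptor values. They held 107 and 54.9 CPM of *Tgfbr1* (log2 ratio −0.97, −1.35 to −0.58) and 65.4 and 26.8 CPM of *Tgfbr2* (−1.29, −1.83 to −0.75). The 12 microglia markers summed to 1376 and 550.3 CPM in dendritic cell-like cells, 2439 and 503 CPM in neutrophil-like cells and, for T cell-like cells, 536 and 248 CPM, with 0 of 12 at 0 in each. Their part in the lower receptor levels was not tested. In the larger neutrophil-like cluster by control cells, *Tgfbr2* had a ratio of −0.41 (−1.33 to 0.51).

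**Figure D4:**
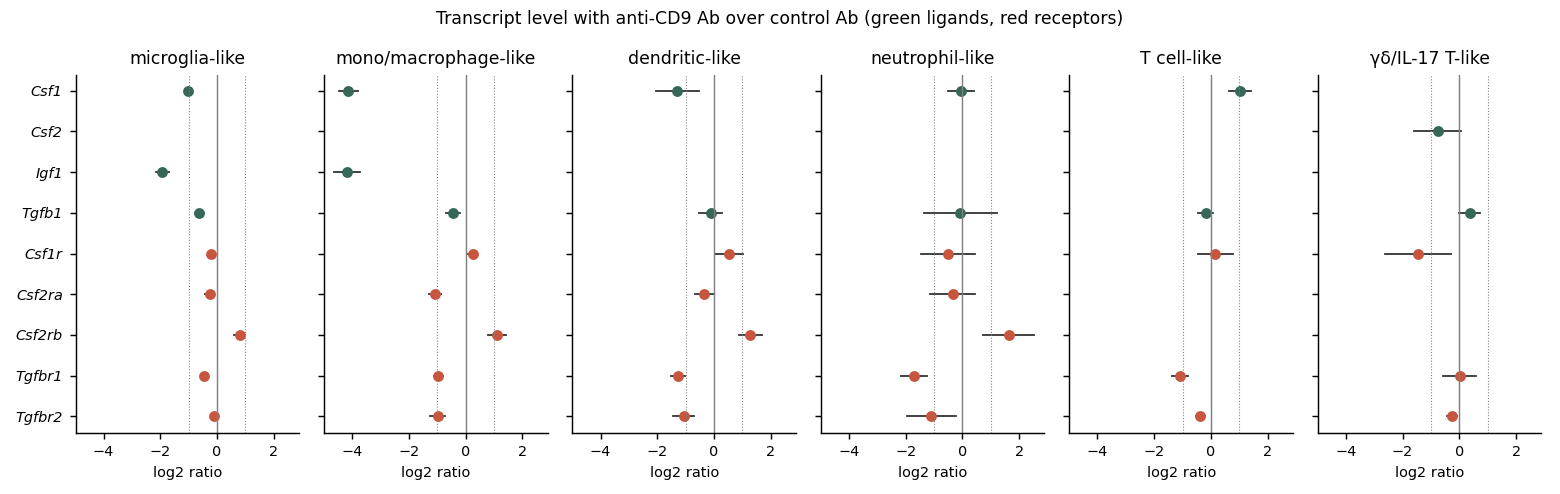
Log2 ratio of the level under anti-CD9 Ab over control Ab for 4 ligands (green) and 5 receptor chains (red) in 6 cell types, with 95% intervals from counting error; dotted lines mark 2-fold, and a missing point had under 50 UMIs. *Csf2rb* lies right of 0 in the 4 myeloid types, *Igf1* left of 0 in microglia-like and macrophage-like cells, and *Csf1* left of 0 there but at 1.01 in T cell-like cells.

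Set against all genes, the members, chosen with earlier results of these data known, stood in different places. Of the 8 members with at least 50 UMIs in microglia-like cells, 2 (*Csf1* and *Igf1*) were 2-fold or more lower under anti-CD9 Ab and 0 were 2-fold higher, while 4.12% of 11129 genes were that much lower and 3.68% higher. Of 8 in monocyte or macrophage-like cells, 3 (*Csf1*, *Igf1* and *Csf2ra*) were lower and 1 (*Csf2rb*) higher, where 6.07% and 8.75% of 8617 genes were. In dendritic cell-like cells 3 of 7 were lower (*Csf1*, *Tgfbr1* and *Tgfbr2*) and 1 higher (*Csf2rb*), against 3.47% and 7.05% of 6342 genes. In neutrophil-like cells, where the control side was 71329 UMIs and 22.7% and 13.3% of 5381 genes were past 2-fold, 2 of 7 were lower and 1 higher. T cell-like cells had 1 of 5 lower (*Tgfbr1*) and 1 higher (*Csf1*), against 2.38% and 3.73% of 8490 genes, and gamma-delta or IL-17 T cell-like cells had 1 of 5 lower (*Csf1r*, 43 and 7 UMIs) and 0 higher, against 3.11% and 1.92% of 7307 genes. Some of these differences were under 2-fold in other settings. Without integration of the libraries *Csf1* had −0.03 and *Igf1* −0.73 in microglia-like cells, so neither was 2-fold lower there. In dendritic cell-like cells *Csf1* had 0.42 with up to 5% mitochondrial counts. With up to 5% mitochondrial counts kept, *Csf1* in T cell-like cells had 0.94, *Tgfbr1* there −0.96 and *Csf1r* in gamma-delta or IL-17 T cell-like cells −0.42, and thinned to 500 UMIs *Tgfbr1* in T cell-like cells had −0.45. The median ratio of the members was −0.35 in microglia-like and −0.97 in macrophage-like cells, where that of all genes was 0.02 and 0.01. The macrophage-like class joined sub-clusters in different proportions. Its *Fabp5* and *Gpnmb* sub-cluster held 115 of 175 control and 169 of 1109 anti-CD9 Ab cells. Inside that sub-cluster *Tgfbr1* and *Tgfbr2*, the members nearest the macrophage-like median, did not differ beyond counting error. Only in neutrophil-like cells was the median of all genes off 0 by more than 0.1, at −0.28.

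**Figure D5:**
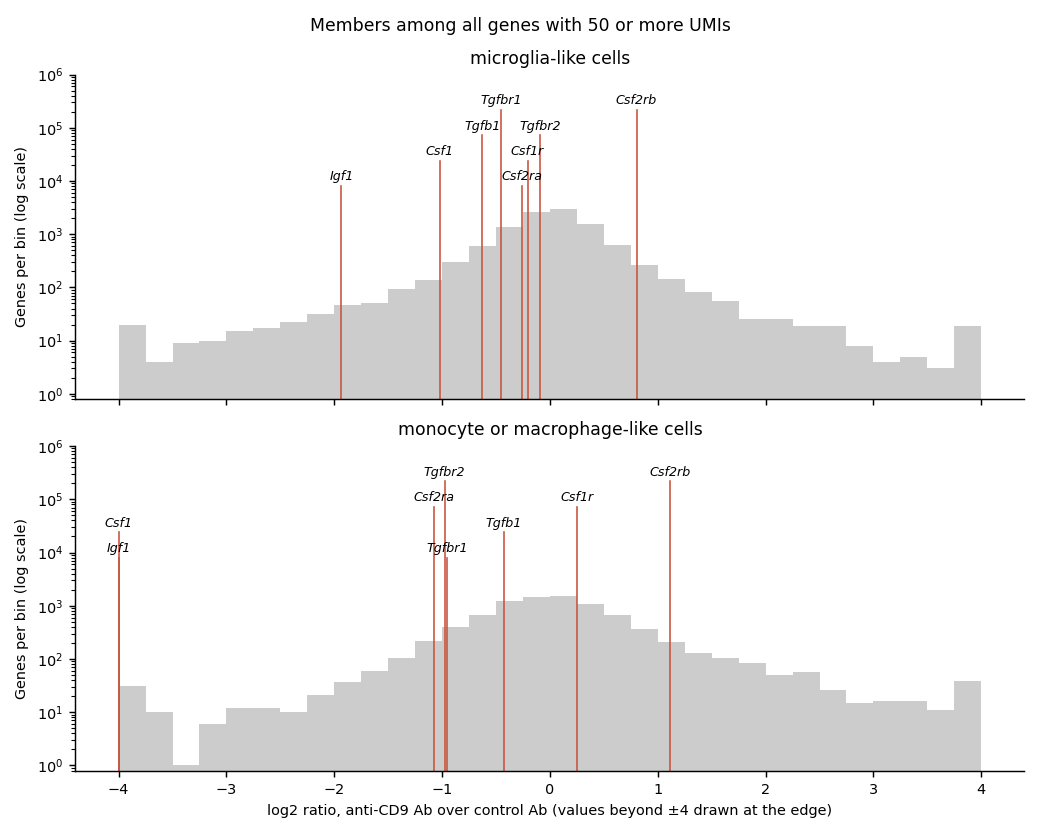
Number of genes (log axis) by log2 ratio of anti-CD9 Ab over control Ab, among genes with at least 50 UMIs in microglia-like cells (top) and monocyte or macrophage-like cells (bottom), with the members marked by red lines; values beyond 4 on either side are drawn at the edge. *Igf1* and *Csf1* lie in the lower tail in both panels (−1.94 and −1.02, then −4.17 and −4.13), and *Csf2rb* in the upper part (0.80 and 1.11).

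Ligand sources and receptor-bearing cells shifted to different extents. Microglia-like cells held 69.2% (68.0 to 70.3%) of *Csf1* UMIs under control Ab and 19.3% (18.0 to 20.6%) under anti-CD9 Ab, while neutrophil-like cells held 53.3% (51.6 to 55.0%) under anti-CD9 Ab, being 0.857% and 29.2% of kept cells. The receptor *Csf1r* passed from 74.7% in microglia-like cells to 39.3% there and 38.3% in monocyte or macrophage-like cells. With control Ab the cells holding most *Csf1* and most *Csf1r* were thus the same type, and under anti-CD9 Ab they were not. *Csf2rb* changed from 57.8% microglia-like to 37.6% neutrophil-like, 29.5% macrophage-like and 8.72% microglia-like. *Csf2ra* changed from 59.6% microglia-like to 32.6% macrophage-like, 21.1% neutrophil-like and 18.96% microglia-like. *Igf1* stayed mostly microglial, at 72.0% (70.4 to 73.7%) of 2876 UMIs and 60.4% (54.4 to 66.1%) of 285 UMIs. *Tgfb1* moved from 56.1% microglia-like to 32.8% macrophage-like and 17.5% microglia-like, while *Tgfbr1* and *Tgfbr2* remained largest in microglia-like cells (47.5% and 41.1% under anti-CD9 Ab).

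How much of the library-wide difference followed the makeup of the libraries was computed by giving each cell group its anti-CD9 Ab level at its control Ab share. Over all kept cells *Csf2rb* was 41.9 and 169 CPM, and 86.1 CPM under anti-CD9 Ab levels at the control makeup, so that the log2 ratio of 2.01 became 1.04. *Tgfbr2* went from −1.14 to −0.31, *Tgfbr1* from −1.37 to −0.62 and *Csf1r* from −0.80 to −0.30. With control Ab levels at the anti-CD9 Ab makeup instead, *Tgfbr2* was 318 CPM against the measured 201 CPM under anti-CD9 Ab, *Tgfbr1* 629 against 315 CPM and *Csf1r* 351 against 279 CPM. *Igf1* kept a ratio of −2.16 (−3.20 as measured), *Tgfb1* −0.45 (−0.47), and *Csf1* had −0.90 (−0.70). These values carry the cell naming with them, and fewer cells of a type cannot be told from a change in how many were captured.

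Ligand and receptor were also counted within single cells at 1000 UMIs per cell. *Csf1* and *Csf1r* UMIs occurred together in 216 of 1896 microglia-like cells under control Ab (11.4%, 10.0 to 12.9%) and in 40 of 866 under anti-CD9 Ab (4.62%, 3.32 to 6.24%). The single shares multiply to 13.4% and 5.97%, and only the second lay within the interval of its measured share. The product takes microglia-like cells as a single population. Under control Ab 38.3% of MG#4-like and 8.47% of MG#2/3-like cells had a *Csf1* UMI, while *Csf1r* had the opposite order. The product thus cannot show whether the genes avoid the same cells, and their relation within a state was not tested. *Tgfbr1* and *Tgfbr2* UMIs occurred together in 33.9% (31.7 to 36.04%) and 25.4% (22.5 to 28.4%) of microglia-like cells, where the products were 32.8% and 23.5%. *Csf2ra* and *Csf2rb* UMIs occurred together in 0.897% and 0.693% of microglia-like cells and in 4.19% (3.31 to 5.21%) of neutrophil-like cells under anti-CD9 Ab. The products were 0.769% and 1.01% for microglia-like cells and 3.75% for these neutrophil-like cells, each within the interval of its measured share.

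Genes of the same pathways were taken from lists. Of 18 genes of CSF receptor signaling and feedback, 18 were measured in microglia-like cells, and 4 were 2-fold or more higher under anti-CD9 Ab and 0 lower, with a list median of 0.25, where 3.68% and 4.12% of all genes were past 2-fold and the neutrophil markers summed to 226 and 1054 CPM. These were *Socs3* (26.7 and 152 CPM, log2 ratio 2.52), *Pim1* (31.6 and 105 CPM, 1.73), *Cebpb* (160 and 469 CPM, 1.55) and *Socs1* (15.5 and 32.5 CPM, 1.07). *Socs1* and *Socs3* encode feedback inhibitors of JAK-STAT signaling, *Pim1* a kinase induced by STAT factors and *Cebpb* a transcription factor of inflammatory myeloid cells, and all 4 also respond to cytokines outside this family. The same 4 were past 2-fold in monocyte or macrophage-like cells, where 5 of 16 measured genes were higher (8.75% of all genes), among them *Jak2*, the kinase bound by the common beta chain (50.2 and 248 CPM, 2.31). *Cebpa*, a factor of myeloid differentiation, was lower there (222 and 70.6 CPM, −1.65). The macrophage-like class joined sub-clusters in different proportions, and the part of this in its pathway gene values, here and below, was not tested. In dendritic cell-like cells 5 of 17 were higher, *Socs1*, *Socs2*, *Socs3*, *Pim1* and *Cebpb* (7.05% of all genes), and in T cell-like cells 1 of 17, *Socs3* (3.73%). In neutrophil-like cells 5 of 16 were higher and 3 lower, where 13.3% and 22.7% of all genes were. In gamma-delta or IL-17 T cell-like cells 0 of 15 were past 2-fold, against 1.92% of all genes higher and 3.11% lower.

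Of 30 genes of the TGF-beta axis, 20 were measured in microglia-like cells and 2 were 2-fold or more higher (3.68% of all genes), *Thbs1* (4.71 and 24.9 CPM, log2 ratio 2.40), whose product can activate latent TGF-beta, and *Tgfbi*, a TGF-beta induced matrix gene (31.9 and 84.6 CPM, 1.41), with a list median of 0.04. Both were also higher in macrophage-like cells (2.66 and 1.76), while *Itgav*, the alpha V integrin chain, was lower (475 and 138 CPM, −1.79). *Tgfbi* was a leading gene of the monocyte or macrophage-like cluster, which had 271 and 1197 cells before doublet-rich sub-clusters were left out. The part of RNA from other cells in the microglial *Thbs1* and *Tgfbi* values was not tested. *Nrros*, which holds latent TGF-beta on microglia, was 200.4 and 211 CPM in microglia-like cells, a ratio of 0.07 (−0.05 to 0.20). Of 13 genes of the IGF axis, 6 were measured in microglia-like cells and 1, *Igf1* itself, was past 2-fold, on the lower side (4.12% of all genes). The receptor *Igf1r* was 164 and 102 CPM there (−0.69, −0.87 to −0.52). Its highest levels were in neutrophil-like cells (561 and 619.8 CPM) and gamma-delta or IL-17 T cell-like cells (558 and 363 CPM). Under control Ab these types could not be ordered, since neutrophil-like cells held 71329 UMIs of all genes in that library. Of 8 genes of the GM-CSF family, 4 were measured in microglia-like cells. Of these *Il3ra*, the IL-3 receptor alpha chain, was 2-fold or more lower (26.3 and 10.1 CPM, −1.38), where 4.12% of all genes were. It was also lower in macrophage-like cells (82.4 and 34.6 CPM, −1.25), where 6.07% of all genes were 2-fold or more lower.

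*Csf3*, encoding G-CSF, had 0 UMIs under control Ab and 176 UMIs under anti-CD9 Ab (7.77 CPM). This was 64.6-fold a floor of 3 counts (0.120 CPM), and the exact interval of the 0 count reached 0.148 CPM. The fold is over all kept cells and carries the makeup of the libraries, with 64 and 2674 neutrophil-like cells. Of the 176 UMIs, 125 lay in neutrophil-like cells, in 59 cells, and 23 in an unnamed cluster of 2 and 825 cells led by *Gdf15* and *Hilpda*. Within neutrophil-like cells the 37.8 CPM under anti-CD9 Ab lay under the control Ab floor of 3 counts (42.1 CPM), so no fold was formed there. Its receptor *Csf3r* was 1570 CPM (1293 to 1889) and 1099 CPM (1063 to 1135) in neutrophil-like cells and 403 and 453 CPM in microglia-like cells. Within the neutrophil-like clusters, which made up different parts of the class in each library, it was 1681 CPM (1368 to 2044) and 1948 CPM (1875 to 2023) in the *Retnlg* cluster, with a log2 ratio of 0.21 (−0.07 to 0.50), and 1014 and 491 CPM in the *Cxcl2* cluster. *Flt3*, the receptor of dendritic cell precursors, was 235 and 263 CPM in dendritic cell-like cells (0.16, −0.10 to 0.42), and *Kit* 86.7 and 112 CPM there. The FLT3 ligand gene *Flt3l* was 38.9 and 24.9 CPM for T cell-like cells (−0.64, −1.15 to −0.13), 22.8 and 34.9 CPM for gamma-delta or IL-17 T cell-like cells (0.62, −0.02 to 1.25) and 42.6 and 51.5 CPM for NK cell-like cells (0.27, −0.52 to 1.07). Inside the larger T cell-like cluster *Flt3l* was 39.8 CPM (31.5 to 49.5) and 31.0 CPM (20.4 to 45.1). In each T cell-like cluster the intervals of the libraries overlapped, and the clusters made up different parts of the class. The ligand *Kitl* was 30.6 and 48.3 CPM in microglia-like cells (0.66, 0.38 to 0.94). Of thinned microglia-like cells, 3.38% (2.61 to 4.29%) under control Ab and 3.35% (2.25 to 4.77%) under anti-CD9 Ab had a *Kitl* UMI. The higher CPM of *Kitl* was thus not seen in these shares, and the reason was not tested.

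Over the 21 groups of 1 cell type and library with at least 50 cells, the genes whose log2 levels ran most like those of the members were, as a description that rests on shared cell types, *Cx3cr1* (r = 0.96), *Fcgr1* (0.95) and *Lgmn* (0.95) for *Csf1r*. For *Igf1* they were *Rcan1* (0.92) and *Lpl* (0.91), for *Csf2rb* *Il13ra1* (0.95), *Ifi207* (0.93) and *Ptafr* (0.93), and for *Csf2ra* *Cd300c2* (0.94), *Spi1* (0.94) and *Clec5a* (0.93). *Csf1* ran most like *Gm34589* (0.86), *Fnip1* (0.85) and *Csf3r* (0.85). The closest to *Tgfb1* were *Clta* (0.93), *Mcrip1* (0.91) and *Laptm5* (0.89), to *Tgfbr1* *Zfp710* (0.94), *Cx3cr1* (0.93) and *Rab11fip5* (0.93), and to *Tgfbr2* *Arhgap25* (0.93), *Fli1* (0.91) and *Fam76b* (0.88), out of 11132 genes compared.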

How the data were processed

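The authors deposited 1 matrix of raw UMI counts per gene and cell barcode for each library (12245 and 15173 barcodes for control Ab and anti-CD9 Ab), made from 10x Genomics 3′ libraries of sorted live CD45+ cells. Per the labels, Cell Ranger 8.0.0 and GRCm39 were used, and the methods of the study name another version and build. Whether intronic reads were counted is not given in the sources used here, and reads of unspliced RNA would change levels of long genes.

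Cells with 200 to 7500 genes and at most 2% mitochondrial counts were kept (61.0% and 60.4% of barcodes). Counts were scaled to 10000 per cell, integrated by anchors and clustered in Seurat 5.3.0 under R 4.3.3 (2000 variable genes, 30 principal components, resolution 0.8), with 78 genes of the pathways studied held out. A cluster was named where at least 3 markers and 40% of its list were up. Cells were ranked by the share of simulated doublets among their neighbors. The highest were marked as doublets up to a preset 0.8% per 1000 cells, so the total per library was set by its cell number. They were 9.87% and 11.3% of kept cells and were kept in the named types. Macrophage sub-clusters made up mostly of them were taken out, a choice made after seeing the data.

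UMIs were summed per cell type and library and divided by the type's total UMIs. With 1 library per antibody there was no test. Intervals are exact 95% Poisson or binomial ones, and ratios needed at least 50 UMIs over both libraries. A gene at 0 was set against a floor of 3 counts. Shares of cells were taken after thinning to 1000 UMIs per cell, which left out 58 and 25 microglia-like, 43 and 858 neutrophil-like, 185 and 43 T cell-like, and 153 and 29 gamma-delta or IL-17 T cell-like cells. Median depth was 1880 and 1419 UMIs per kept cell. The genes named were the members, a set of partners (such as *Csf2rb2*, *Csf3* and *Igf1r*), listed pathway genes past 2-fold, and for each member with at least 200 UMIs the 3 genes with the highest Pearson correlation of log2(CPM + 10) over groups of at least 50 cells. Some genes that this rule names are not reported here. The members and lists were chosen with earlier results of these data known. Promoters were RefSeq windows on GRCm38.p6, taken for 7 of 10 members. The search for members left out the entries of a single chromosome, which the background shares kept, so a member without a window may have had an entry there. Python 3.11.15, SciPy 1.17.1 and Matplotlib 3.10.9 were used, and the ratio script was tested on simulated data.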

Additional observations from a re-analysis of the deposited data

Results flagged for a closer look

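*Csf1* differed in opposite directions between cell types. Its log2 ratio of anti-CD9 Ab over control Ab was −4.13 in monocyte or macrophage-like cells and 1.01 in T cell-like cells, with counting intervals that excluded 0 on either side. The macrophage-like class joined sub-clusters in different proportions. The *Fabp5* and *Gpnmb* sub-cluster held 115 of its 175 control cells and 169 of its 1109 anti-CD9 Ab cells, and *Csf1* there was 329 and 42.2 CPM. The T cell-like ratio was 0.94 with up to 5% mitochondrial counts kept. With 1 library per antibody the difference between the cell types was not tested.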

How the results depend on the processing

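No paired analysis was possible because each antibody had 1 library, and for the same reason no replicate could be left out. In microglia-like cells *Csf1* had log2 ratios of −1.19 with up to 5% mitochondrial counts, −0.027 without integration and −0.59 thinned to 500 UMIs. *Igf1* had −0.73 without integration and −1.34 thinned to 500 UMIs. *Tgfbr1* had −0.27 without integration, −0.60 thinned to 1000 UMIs and −0.54 to 500, and *Tgfbr2* −0.22, −0.22 and −0.30 under the same settings. *Csf2ra* had −0.094 thinned to 1000 UMIs and −0.41 to 500, and *Tgfb1* −0.95 to 500. In neutrophil-like cells *Csf2rb* ranged from 1.12 to 3.18, with 3.18 and 2.78 when thinned to 1000 and 500 UMIs. At 1000 UMIs only 1 of 21 control cells had a *Csf2rb* UMI. The share of *Csf1* UMIs in microglia-like cells differed by −49.9 percentage points, and by −55.8 with 5% mitochondrial counts, −67.9 without integration and −59.9 without predicted doublets. That of *Csf2rb* in neutrophil-like cells differed by 36.7 points, and by 29.4, 41.2 and 44.0. *Csf1* in dendritic cell-like cells reversed to 0.42 with 5% mitochondrial counts. In macrophage-like cells *Csf1r* ranged from −0.45 to 0.69, and *Tgfb1* reached 0.80 thinned to 500 UMIs. The causes were not tested. Thinning to 500 UMIs, keeping the doublet-rich sub-clusters and counting unnamed clusters with the nearest type were chosen after seeing the data. Types with few cells limit the depth most, with 71329 control UMIs in neutrophil-like cells.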
